A study of Rattus norvegicus with 10 samples.

Results

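Immediate-early genes are genes whose transcription starts within minutes of a stimulus without new protein synthesis. This account follows 8 of them, Fos, Jun, Junb, Egr1, Dusp1, Atf3, Nr4a1 and Ier2, on every array of a rat study of the penis in diabetes. The members were all probe sets that the platform annotation assigns to one of these genes alone, under its present or a former symbol. The 8 genes are among 10411 that the array names, and 12 such probe sets were found among the 15866 of the array that are not controls, with 3 for Jun, 2 each for Fos and Dusp1, and 1 for each of the other 5 genes. A probe set is the group of short probes that together read 1 transcript on an Affymetrix array.

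The study measured total RNA from penile cavernosal tissue of F344 rats, an inbred strain, with 1 RAE230A array per sample. The tested animals were 5 rats made diabetic with streptozotocin, a toxin that destroys the insulin-producing beta cells of the pancreas. Per the labels they were sampled after 10 weeks of diabetes. The other 5 samples came from control F344 rats, for which the labels give no such time. The labels give neither the age of the animals nor the way they were killed and dissected, and nothing says that samples were pooled, so the p-values below measure the spread between these samples only. Values are deposited intensities, a linear brightness that has no physical unit and can be compared between arrays for 1 probe set but not between probe sets. Median intensities lay between 126.3 and 131.4 on diabetic arrays and between 116.8 and 129.3 on control arrays, and precision is limited by how many arrays there were. Markers of smooth muscle and endothelium, cell types of cavernosal tissue but not of it alone, were read on every array. Summed intensities for smooth muscle were at least 13798 in diabetic and 12823 in control arrays, and for endothelium at least 2601 and 1896. Skeletal muscle markers were bright on every array as well. Their summed intensities over 17 genes were 80532 to 111354 in diabetic and 103114 to 126810 in control arrays. Those of epithelial markers were 16096.5 to 27886.7 in diabetic and 842 to 28916.8 in control arrays.

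Immediate-early genes are switched on by growth factors, calcium, cell stress, low oxygen, stretch and nerve activity, mainly through MAP kinases and through the factors SRF and CREB, which already sit on their promoters. Most of their products are transcription factors, and the mRNAs are short-lived, so their level in a dissected tissue also depends on what happened in the minutes before it was frozen. Fos, Jun and Junb encode subunits of the dimeric factor AP-1. Atf3 encodes a stress-induced relative of these, Egr1 a zinc finger factor and Nr4a1 an orphan nuclear receptor. Dusp1 encodes a phosphatase that switches MAP kinases off again, and Ier2 a small nuclear protein.

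The 3 promoters below are shown because they differ in the sequence elements for which this class of genes is known. Junb carries only the short form named below. The 3 genes had their lowest value on the same array, as did Ier2 and Nr4a1, and a link between elements and levels was not tested. They are from RefSeq on build GRCr8, each running from 250 bases before to 50 bases after an annotated start of the gene, 5′ to 3′ on the strand of the gene. Capitals mark a CArG box, the element bound by SRF, and the CREB element TGACGTCA or its short form TGACG, searched on both strands, where the short form also lies inside the full element. RefSeq promoters were matched for 5 of the 8 genes, Dusp1, Egr1, Ier2, Junb and Nr4a1.
Egr1, chr18:26736828-26737127, plus strand: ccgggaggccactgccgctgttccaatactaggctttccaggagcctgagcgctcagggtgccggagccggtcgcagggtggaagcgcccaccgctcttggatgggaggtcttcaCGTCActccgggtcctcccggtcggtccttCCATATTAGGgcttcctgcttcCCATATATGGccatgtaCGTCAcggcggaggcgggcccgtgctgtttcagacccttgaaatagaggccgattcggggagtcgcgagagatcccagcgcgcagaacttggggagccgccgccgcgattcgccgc
Dusp1, chr10:17184603-17184902, plus strand: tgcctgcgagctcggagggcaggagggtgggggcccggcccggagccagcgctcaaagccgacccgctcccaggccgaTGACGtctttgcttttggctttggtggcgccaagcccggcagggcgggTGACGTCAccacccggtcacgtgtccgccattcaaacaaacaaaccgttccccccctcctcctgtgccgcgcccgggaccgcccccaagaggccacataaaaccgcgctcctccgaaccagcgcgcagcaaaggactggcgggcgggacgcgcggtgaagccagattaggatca
Junb, chr19:40080876-40081175, plus strand: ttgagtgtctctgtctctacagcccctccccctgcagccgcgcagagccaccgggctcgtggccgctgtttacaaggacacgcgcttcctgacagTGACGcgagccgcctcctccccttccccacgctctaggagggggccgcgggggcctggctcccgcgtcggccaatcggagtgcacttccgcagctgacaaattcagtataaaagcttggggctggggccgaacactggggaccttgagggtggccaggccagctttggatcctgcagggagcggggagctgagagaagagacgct
In these windows Egr1 held 2 CArG boxes, and CArG boxes were found in 1.64% of all 33469 RefSeq rat promoters of this length. The full element TGACGTCA was found in Dusp1 and Ier2, 1 copy each, and in 1.83% of all promoters. The short form was found in all 5 genes, with 4 copies in Nr4a1 and 1 in Junb, and in 21.2% of all promoters. The Nr4a1 window (chromosome 7, 134259888 to 134260187) lies inside the annotated span of the gene, not at its outermost start. These are matches of letters, given as a description.

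Array by array, 1 control sample stood far below all the others. On control 3 the 8 genes, taken by the probe set with the highest mean intensity, differed from their medians over the 10 arrays by -1.38 log2 units on average, with single genes between -2.19 and -0.28. Of the 11 member probe sets that passed a filter on intensity, 8 had their lowest value of all on control 3, where 7.61% of the 9683 probe sets that passed were lowest. A difference of more than 1 log2 unit below the median was seen for 6 of the 11, against 1.25% of all probe sets that passed. In bulk tissue, fewer cells of a type and less RNA per cell cannot be told apart.

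The other 9 arrays lay within a narrower band. The mean difference of the 8 genes was 0.47, 0.14, -0.17, -0.04 and -0.36 on diabetic arrays 1 to 5. It was 0.12, 0.08, 0.30 and 0.09 on control arrays 1, 2, 4 and 5. Diabetic 1 was the highest of the 10 arrays for 7 of the 11 probe sets, against 9.43% of all, and all 8 genes lay above their medians there. These 7 were the probe sets of Jun, Dusp1, Fos and Ier2, and probe sets of the same gene are not independent. Junb and Atf3 were highest on control 4, Egr1 on control 1 and Nr4a1 on diabetic 2. Diabetic 5 had the lowest mean among diabetic arrays, with 7 of 8 genes below their medians. Over all probe sets that passed, the mean difference from the median was 0.01 on diabetic 1 and -0.002 on control 3. It was lowest on control 1, at -0.09. Every array had been scaled to about the same trimmed mean, so these means are not independent of the scaling.

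**Figure D1:**
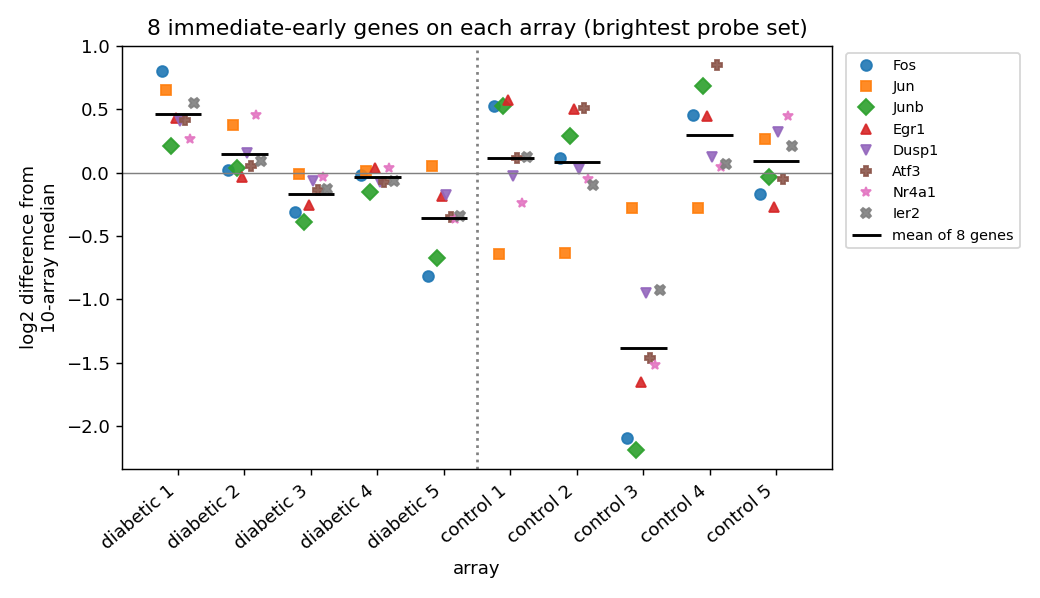
Log2 difference of each of the 8 genes (brightest probe set, coloured marks) from its own median over the 10 arrays, for diabetic and control arrays, with a black line at the mean of the 8. On control 3 the mean is -1.38 and Jun alone stays near its usual level, at -0.28, while diabetic 1 has the highest mean, 0.47.

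Among the AP-1 genes, Fos and Junb showed the drop on control 3 most and Jun did not. Fos (chromosome 6, 110852188 to 110855054, GRCr8), the partner that makes AP-1 dimers bind DNA strongly, read 2415.5, 1397.9, 1109.6, 1359.5 and 774.5 on diabetic arrays 1 to 5, against 1994.9, 1493.2, 310.4, 1892.1 and 1221.8 on control arrays 1 to 5, by probe set 1375043_at. Control 3 was the lowest and diabetic 1 the highest, and the groups overlapped widely, with 1411 ± 614 in diabetic and 1382 ± 675 in control tissue (SD, n = 5 each). The second Fos probe set, 1371283_at, was dim, at 53.8 to 72.7 in diabetic and 22.1 to 83.2 in control arrays, did not pass the filter and had its highest value on control 3. The 2 probe sets of Fos thus disagreed, and only the bright one was tested.

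Junb (chromosome 19, 40081126 to 40082910), a Jun relative that forms AP-1 of weaker activity, read 1802.7, 1591.7, 1183.3, 1391.6 and 966.5 on diabetic arrays 1 to 5, against 2238.5, 1901.5, 328.2, 2509.2 and 1514.3 on control arrays 1 to 5. It was 5.11 times lower on control 3 than the mean of the other 9 arrays, the widest gap of any member. Diabetic arrays averaged 1387 ± 329 (SD, n = 5), against 1698 ± 852 in all controls (n = 5) and 2041 ± 430 in controls without that array (n = 4).

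Jun (chromosome 5, 115009900 to 115012993), the DNA-binding subunit that can also pair with itself, was read by 3 probe sets, and on none of them was control 3 the lowest array. The brightest, 1389528_s_at, read 2044.6, 1688.1, 1285.7, 1309.5 and 1348.1 on diabetic arrays 1 to 5, against 825.5, 831.1, 1068.4, 1066.9 and 1562.9 on control arrays 1 to 5. Here 4 control arrays lay below every diabetic array, and control 5 lay among them. By 1374404_at Jun read 391.7 to 678.1 in diabetic and 264.3 to 483.0 in control arrays, with control 5 again the highest control. By 1369788_s_at the ranges were 555.1 to 985.6 and 569.4 to 813.5. All 3 were highest on diabetic 1, and they were lowest on control 1, control 2 and diabetic 3. The suffix _s_at marks probe sets that can match more than 1 transcript, so 2 of the 3 readings of Jun may be shared. The probe sets 1389528_s_at and 1374404_at are annotated to the same target sequence, so they are not independent readings.

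Atf3 (chromosome 13, 105274103 to 105331653), a stress-induced factor that mostly represses its targets, read 732.7, 567.1, 493.4, 516.3 and 424.9 on diabetic arrays 1 to 5, against 591.3, 782.3, 187.5, 995.4 and 524.8 on control arrays 1 to 5. Control 3 was lowest and control 4 highest, so both ends of the range were controls. Control 4 was the highest array for 2 of the 11 probe sets, Atf3 and Junb, against 9.96% of all. Egr1 (chromosome 18, 26737078 to 26740877), the zinc finger factor, read 3508.4, 2524.9, 2163.6, 2663.8 and 2282.6 on diabetic arrays 1 to 5, against 3861.7, 3676.2, 813.4, 3547.3 and 2143.0 on control arrays 1 to 5. Controls 1, 2 and 4 lay above all 5 diabetic arrays, while controls 3 and 5 lay below them all. Nr4a1 (chromosome 7, 134247153 to 134268044), the nuclear receptor, read 5096.3, 5815.1, 4132.0, 4355.0 and 3296.0 on diabetic arrays 1 to 5, against 3595.2, 4089.9, 1472.1, 4371.7 and 5775.4 on control arrays 1 to 5. It was 3.06 times lower on control 3 than the mean of the other 9 arrays, and apart from that array the groups covered nearly the same range.

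Dusp1 (chromosome 10, 17184853 to 17187646), the MAP kinase phosphatase, was lowest on control 3 by both of its probe sets, though not to the same degree. By 1368146_at it read 4474.5, 3766.0, 3223.2, 3200.8 and 2993.8 on diabetic arrays 1 to 5, against 3314.1, 3443.1, 1742.0, 3684.9 and 4229.7 on control arrays 1 to 5. By the dimmer 1368147_at it read 1185.7, 956.0, 572.2, 841.7 and 609.1, against 896.4, 826.5, 196.8, 1016.5 and 868.6. The gap between control 3 and the mean of the other arrays was 2.06 times by the first and 4.39 times by the second. Ier2 (chromosome 19, 40399373 to 40400897), the small nuclear protein, read 841.1, 609.0, 519.7, 544.1 and 446.7 on diabetic arrays 1 to 5, against 621.7, 531.3, 292.5, 598.7 and 662.0 on control arrays 1 to 5. Its gap was the smallest of the 7 genes that were lowest on control 3, at 2.04 times.

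**Figure D2:**
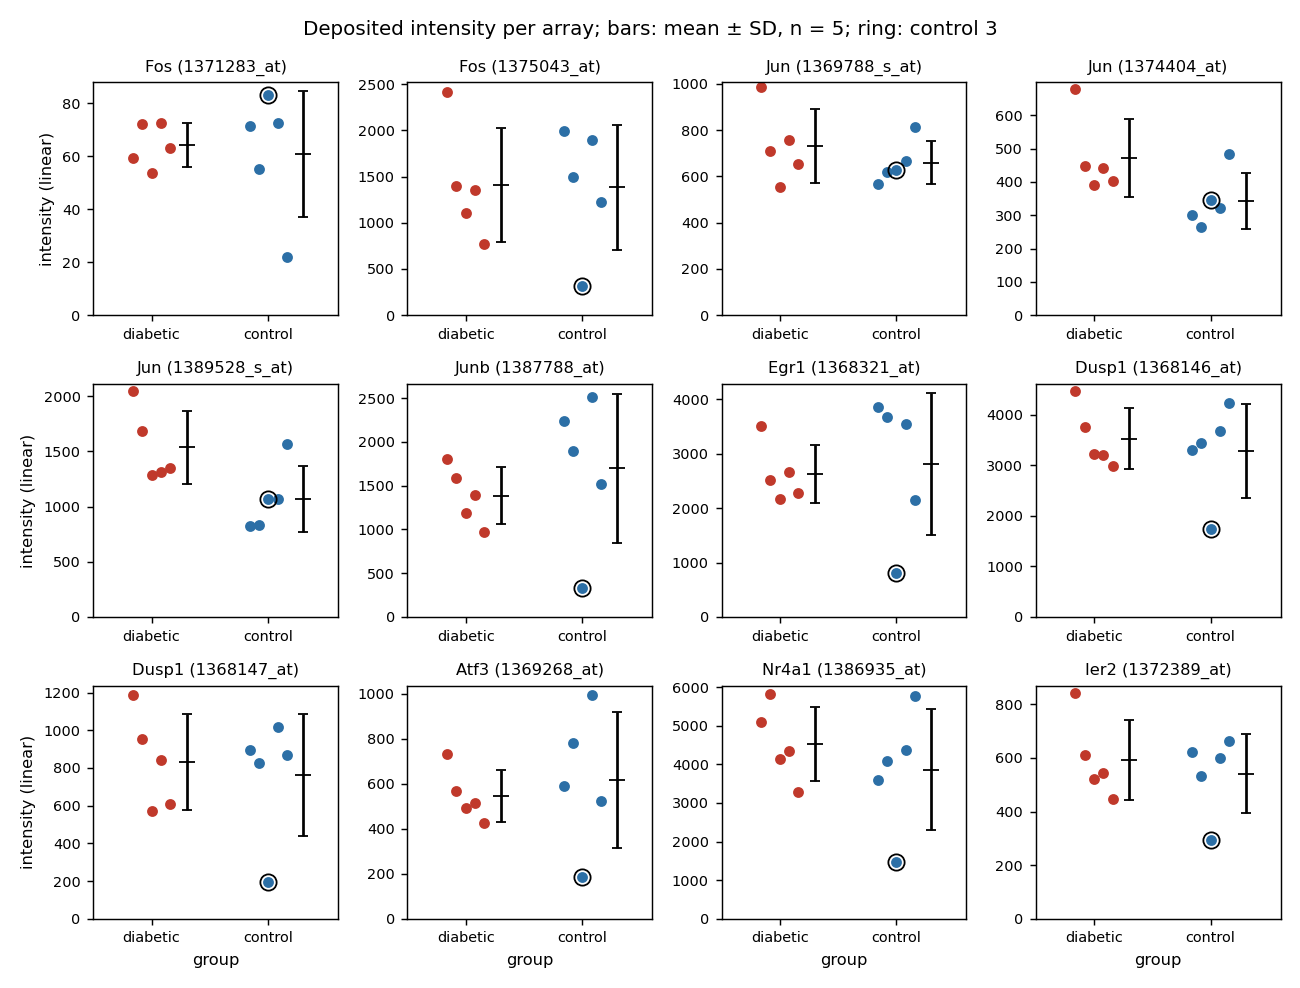
Deposited intensity (linear, from 0) of the 12 member probe sets on diabetic and control arrays, 1 point per array, with the mean ± SD of 5 arrays beside each group and a ring around control 3. The ringed point is the lowest of all in 8 panels, which leave out the 3 panels of Jun and the dim Fos probe set, and the groups overlap in all 12.

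Set against the control tissue, no member differed in diabetic tissue past the threshold. With limma's moderated test, 0 of the 11 probe sets had an adjusted p under 0.05, against 0.423% of all 9683 tested (41 probe sets), and 2 of 11, both of Jun, had an unadjusted p under 0.05, against 17.5% of all. Both were higher in diabetic tissue, as were 10.1% of all at that p, and both have the same target sequence. The values of the groups did not overlap for 0 of the 11, against 3.89% of all. Their median log2 difference was 0.15, with 9 of 11 positive, against a median of 0.05 and 57.8% positive over all probe sets tested.

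The largest differences were those of 2 of the 3 Jun probe sets, which share their target sequence. Jun stood at 0.53 ± 0.19 (log2, SE) by 1389528_s_at, with a 95% interval of 0.10 to 0.96 and a limma adjusted p of 0.217. By 1374404_at it stood at 0.44 ± 0.18 (adjusted p = 0.255, limma) and by 1369788_s_at at 0.13 ± 0.15 (adjusted p = 0.660, limma). Without control 5, the control array with the highest Jun, the first 2 passed, at 0.67 (limma adjusted p = 0.0314) and 0.57 (adjusted p = 0.0465), in a fit that called 1068 probe sets in all. They also passed with array weights, at 0.68 and 0.58, in a fit that called 2813. Without controls 1 and 2, left out after the data were seen, they stood at 0.31 and 0.28, with limma unadjusted p of 0.149 and 0.191. On controls 1, 2 and 4 the mean difference of epithelial markers was -3.55, -3.19 and -1.42. There 1389528_s_at differed from its median by -0.64, -0.63 and -0.28. On control 5 the markers stood at 0.63 and this probe set at 0.27. Control 3 did not follow this order, with the markers at 0.11 and the probe set at -0.28, as on control 4. The part of epithelial tissue in the Jun values was not tested.

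For the other genes the interval spanned 0 and was wide. Nr4a1 stood at 0.33 ± 0.32, the brighter Dusp1 probe set at 0.15 ± 0.22 and the dimmer at 0.26 ± 0.40, Fos at 0.17 ± 0.47, and Ier2 at 0.15 ± 0.23. Egr1 stood at 0.08 ± 0.38, Atf3 at -0.01 ± 0.36 and Junb at -0.05 ± 0.47, and limma adjusted p of these 8 probe sets lay between 0.579 and 0.990. The 95% interval of Junb ran from -1.09 to 0.99, so the arrays do not exclude a 2-fold difference in the negative direction. A 2-fold difference in the positive direction was not excluded for Fos, the dimmer Dusp1 probe set and Nr4a1. Their upper limits were 1.21, 1.15 and 1.03. The spread differed as well. The SD of log2 values was larger in control than in diabetic arrays for 10 of the 11 probe sets, as it was for 77.0% of all, and without control 3 for 4 of 11, against 74.6% of all.

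Leaving out control 3 turned the direction of 5 of the 11 probe sets, those of Fos, Egr1, Ier2 and both of Dusp1. Without it, 7 of 11 probe sets were negative, against 43% of all, and the median of the members was -0.06, against 0.05 over all probe sets. Junb then stood at -0.56 ± 0.21 (95% interval -1.02 to -0.10, limma adjusted p = 0.175, unadjusted p = 0.0212), Atf3 at -0.37 ± 0.21, Egr1 at -0.31 ± 0.20, Fos at -0.30 ± 0.29 and Nr4a1 at 0.022 ± 0.19. Fos and Egr1 also turned without diabetic 1, to -0.047 and -0.030. Jun stood at 0.54, 0.45 and 0.12, close to its values with all arrays. In that fit 0 of 11 probe sets passed, against 0.248% of all, and 3 of 11, those of Junb and 2 of Jun, had an unadjusted p under 0.05, against 22% of all.

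**Figure D3:**
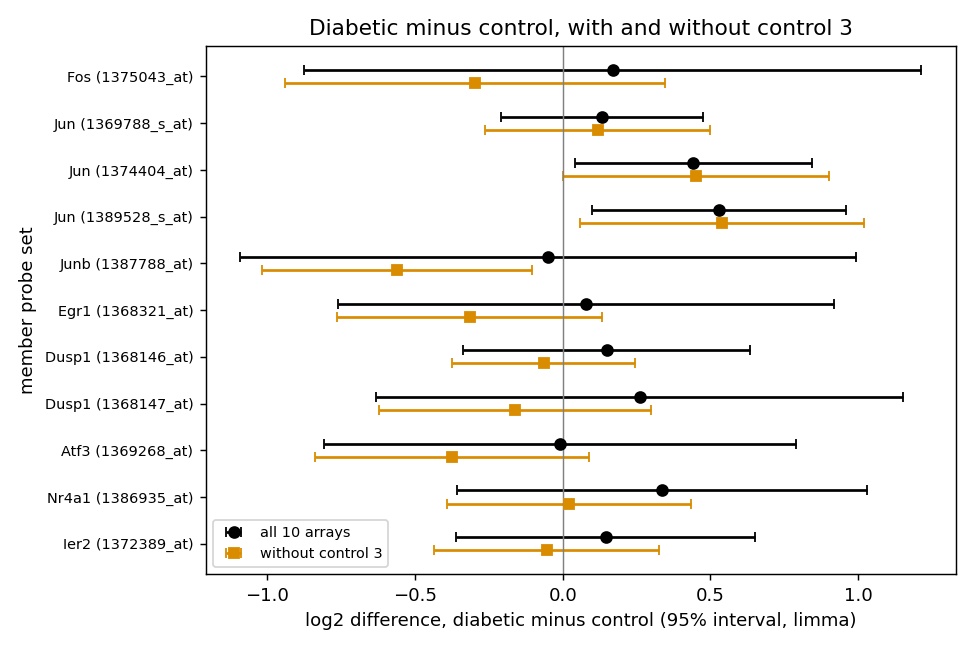
Log2 difference, diabetic minus control, with 95% limma intervals for the 11 member probe sets that passed the filter, from all 10 arrays (black circles) and without control 3 (orange squares). The points of Fos, Egr1, Dusp1 and Ier2 change sign, Junb moves to -0.56, and the 3 Jun probe sets stay where they were.

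The array records give 4 scan days and 2 fluidics stations, with station 1 holding 4 controls and diabetic 2, and station 2 holding control 4 and 4 diabetic arrays. Control 3 shared its scan day and its station with control 2, whose mean member difference was 0.08. The same scan day, 3, also held diabetic 4 and diabetic 5, at -0.04 and -0.36. Scan day 2 held only diabetic 1 and control 4, both on station 2 and the 2 highest arrays, at 0.47 and 0.30. Scan day 1 held diabetic 2, control 1 and control 5, at 0.14, 0.12 and 0.09. The part of scan day in these levels was not tested. Within scan days 1, 2 and 3, 7, 8 and 11 of the 11 probe sets were positive, with median differences of 0.02, 0.28 and 0.49. Within station 1, which holds control 3, all 11 were positive, with a median of 0.38, and within station 2, whose only control is control 4, 3 of 11 were positive, all of Jun, with a median of -0.10. Scan day 4 held diabetic 3 alone and gives no value. The sign of the members other than Jun thus did not hold within stations.

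The genes most like the members' mean profile were sought among 8202 other probe sets with 1 gene, by the root mean square difference over the 10 arrays between log2 profiles, each taken from its own median. The 8 nearest were Zfand2a (0.213), a stress-inducible zinc finger protein, Klf4 (0.222), a Krüppel-like factor, Rasd1 (0.224), a Ras-like protein induced by glucocorticoids, Slc38a2 (0.228), an amino acid transporter, Ppp1r15a (0.229), a phosphatase subunit of the stress response, Zfp36 (0.243), a protein that destabilises AU-rich mRNAs, Ccn2 (0.258), a secreted matrix-associated factor, and Dusp23 (0.264), a small phosphatase. The median over all 8202 was 0.558, and a profile that stayed at its median on every array would lie at 0.493. All 8 had their lowest value on control 3, where the members' mean profile lies farthest from 0. This follows largely from how the 8 were chosen and is no separate result. Among the members themselves Ier2 (0.179) and the brighter Dusp1 probe set (0.187) lay closest to the mean profile. The 3 Jun probe sets, at 0.467 to 0.544, lay farthest of those that passed the filter. Jun by 1374404_at (0.522) and by 1389528_s_at (0.544) lay farther from it than an unchanging profile.

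Other early-response genes were also low on control 3. Of 26 tested genes in a list of other early transcription factors, 18 were lowest there, and 12 lay more than 1 log2 unit below their median. Of 28 tested early effectors and signalling brakes 16 were lowest there, and of 13 early inflammatory genes 11. Over all 7143 genes tested, 537 were lowest on control 3, which is 7.52%. Of the kinases and DNA-binding factors upstream of these promoters, 2 of 16 were lowest there, and of the heat shock and unfolded protein response genes 5 of 19.

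Fosb, a Fos relative chosen here after its values were seen, differed from its 10-array median by -3.03 on control 3, where it read 72.0. Among all genes, those farthest below their median on control 3 were the neutrophil chemokine Cxcl1 (-4.60), the cytokine Il6 (-4.13), the chemokines Cxcl2 (-3.80) and Ccl2 (-3.55), the calgranulin S100a9 (-3.49) and Crem (-3.26), a cAMP-responsive factor. Il6 read 183.3, 284.8, 333.0, 418.0 and 88.6 on diabetic arrays 1 to 5, against 853.4, 1118.5, 2.5, 1050.8 and 169.1 on control arrays 1 to 5. Controls 1, 2 and 4 were thus higher in Il6 than every diabetic array, and control 3 was lower than every other array. Those farthest above their median on control 3 were Ankrd1 (3.16), a stretch-responsive muscle protein, Csrp3 (2.93), a muscle LIM protein, the odorant-binding protein gene Obp2b (2.68), Srebf1 (1.89), a regulator of lipid synthesis, Psca (1.83) and Isyna1 (1.78), the enzyme that makes inositol phosphate.

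**Figure D4:**
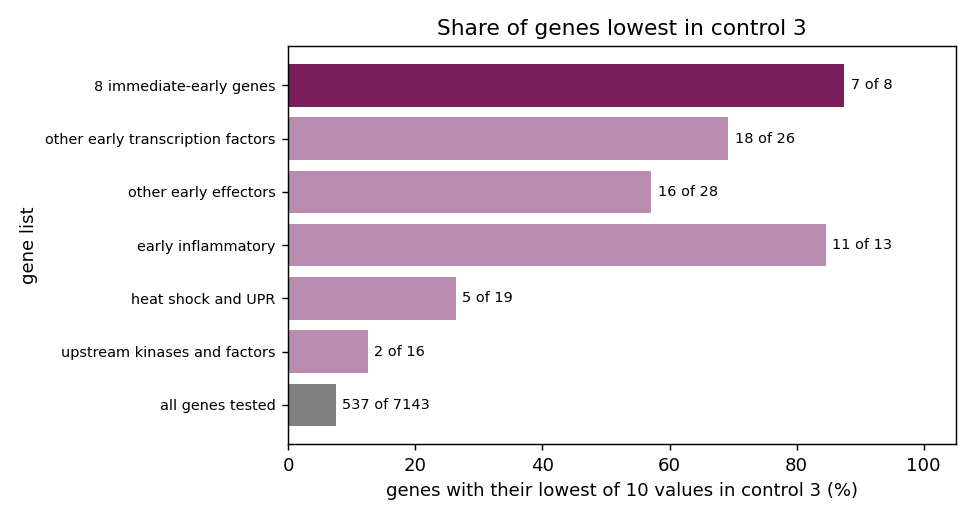
Share of the tested genes of each list, in percent, whose lowest value of the 10 arrays fell on control 3, with the counts beside each bar and all genes tested at the bottom. The bar for the 8 immediate-early genes reaches 87.5% and that for all genes 7.52%.

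On diabetic 1, the array with the highest mean of the members, the genes farthest above their median were Myh8 (2.31), the perinatal skeletal myosin, Psca (1.84), Krt4 (1.81), Lgals7 (1.80), Krt15 (1.74) and Krt14 (1.61), of which the keratins and Lgals7 are genes of stratified epithelium. Those farthest below were Pvalb (-3.59), a calcium buffer of fast muscle fibres, the collagen chains Col1a1 (-2.53) and Col1a2 (-2.29 by 1 of its probe sets and -2.19 by the brightest), Atp1b2 (-2.25), Mybph (-2.17) and Grem1 (-1.87). None of these 12 is an early-response gene of the lists.

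Markers of other cells were read beside these values, and their part in the result was not tested. On control 3 the mean difference over markers was 0.18 for skeletal muscle, -0.03 for smooth muscle, 0.11 for epithelium, -0.07 for endothelium, -0.06 for red blood cells, -0.14 for macrophages, -0.18 for adipocytes, 0.25 for fibroblasts and 0.06 for Schwann cells. Only the neutrophil list lay far lower there, at -2.22, with 2 of its 3 tested genes, S100a8 and S100a9, lowest on control 3. The summed intensity of these 3 genes was 292.1 to 1336 in diabetic and 119.8 to 4653 in control arrays. No tested marker of these lists other than these 2 had its lowest value on control 3. Epithelial markers were low on controls 1, 2 and 4, at -3.55, -3.19 and -1.42, where the mean of the 8 genes was 0.12, 0.08 and 0.30 and the brightest Jun probe set was below its median. On diabetic 1 the neutrophil list stood at -0.93, fibroblast at -0.77 and skeletal muscle at -0.45, while epithelium stood at 0.47 and adipocytes at 0.40.

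**Figure D5:**
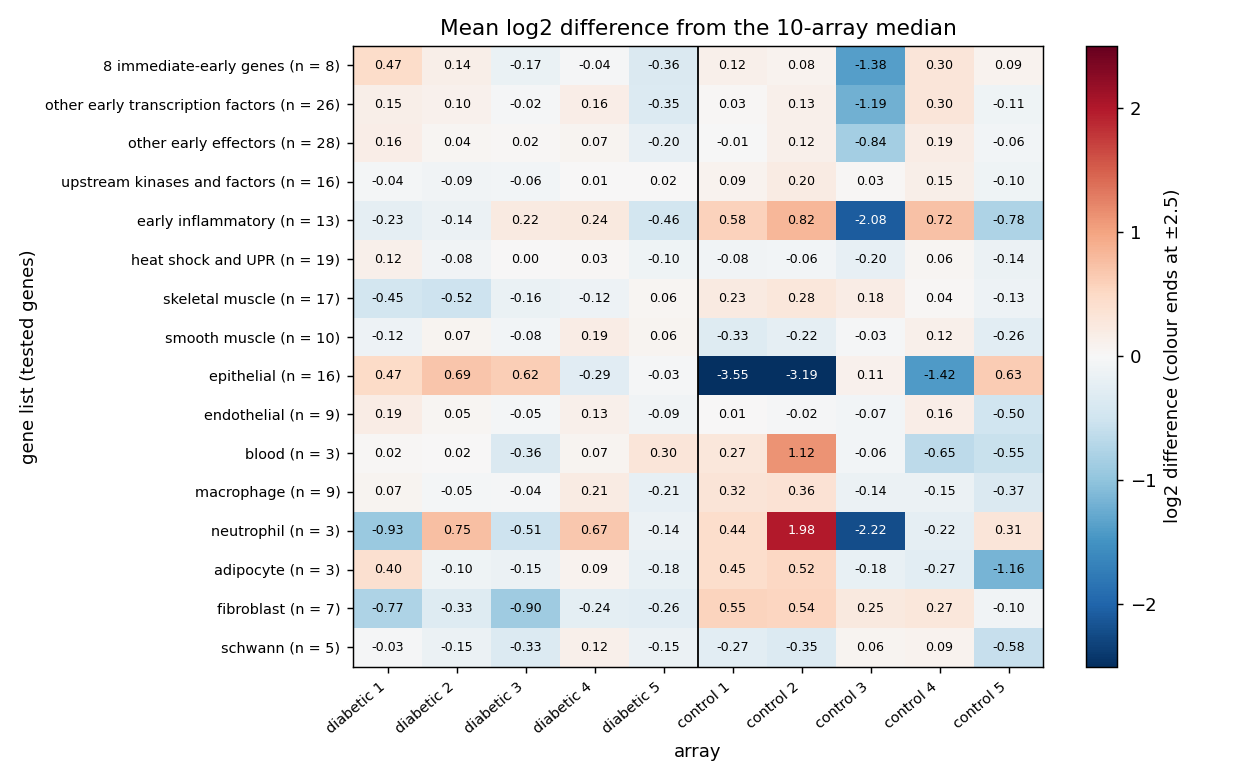
Mean log2 difference from the 10-array median (colour and printed value) of the tested genes of each list, with diabetic arrays left of the line and control arrays right of it. On control 3 the immediate-early, early transcription factor, early effector, early inflammatory and neutrophil rows are low, at -0.84 to -2.22, and the rows of upstream factors and the other cell types stay between -0.18 and 0.25.

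Between diabetic and control tissue, 0 genes of these wider lists passed over all probe sets with limma, against 0.406% of all 7143 genes. An unadjusted limma p under 0.05 was seen for 18.1% of all genes. With array weights 30.2% of all genes passed, among them 6 of 26 other early transcription factors, 7 of 28 effectors, 4 of 16 upstream factors, 3 of 19 heat shock genes and 0 of 13 inflammatory genes. Without control 5, 11.5% passed, and the counts in these lists were 1, 3, 3, 2 and 0. Nr4a2, Dusp5, Map2k6, Map2k2, Atf2 and Herpud1, described next, passed in both of these fits. Other early transcription factors had 18 of 26 differences positive and a median of 0.16, against 0.05 over all 7143 genes, and 6 of 26 had an unadjusted p under 0.05. Without control 3 the median was -0.12. Those with the smallest p were Bhlhe40 (-0.76 ± 0.30, limma adjusted p = 0.234), a clock-linked repressor, Nr4a2 (1.25 ± 0.50, adjusted p = 0.247), a sister receptor of Nr4a1, and Klf10 (-0.41 ± 0.17, adjusted p = 0.251). Early effectors had 19 of 28 positive, 4 with an unadjusted p under 0.05, and a median of 0.13, which was -0.13 without control 3. They were led by Odc1 (-0.56 ± 0.17), the first enzyme of polyamine synthesis, Zfp36l1 (0.42 ± 0.13), an mRNA-destabilising relative of Zfp36, and Dusp5 (2.06 ± 0.67), a phosphatase of the kinase ERK. Dusp5 averaged 2981 ± 720 in diabetic and 1361 ± 1983 in control arrays (SD, n = 5 each), so its control values spread over more than their mean.

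Upstream factors had 4 of 16 positive, 3 with an unadjusted p under 0.05, and a median of -0.10, with Map2k6 at -0.77 ± 0.21 (limma adjusted p = 0.113), Map2k2 at -0.34 ± 0.12 and Atf2 at 0.36 ± 0.15. Srf itself stood at -0.14 and Creb1 at 0.21, both chosen after their values were seen. Early inflammatory genes had 10 of 13 positive, 0 with an unadjusted p under 0.05 by limma, and a median of 0.12, which stood at -0.29 without control 3, with Cxcl1 at 0.51 ± 0.94, Ccl3 at 0.19 ± 0.20 and Nfkb1 at 0.13 ± 0.20. Heat shock and unfolded protein response genes had 10 of 19 positive, 1 with an unadjusted p under 0.05, and a median of 0.02, which was -0.07 without control 3, with Herpud1 at 1.21 ± 0.48, Xbp1 at 0.59 ± 0.31 and Hspe1 at -0.27 ± 0.16.

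Of the cell marker lists, skeletal muscle had 0 of 17 differences positive (median -0.26) and fibroblast 0 of 7 (-0.25), while epithelium had 16 of 16 (1.84), endothelium 8 of 9 (0.13) and smooth muscle 7 of 10 (0.25). Macrophage markers had 5 of 9 positive (0.01), Schwann cell markers 2 of 5 (-0.33), red blood cell markers 2 of 3 (0.09), adipocyte markers 2 of 3 (0.38) and neutrophil markers 1 of 3 (-0.26). Of these, 0 passed with limma, against 0.406% of all genes. An unadjusted limma p under 0.05 was seen for 18.1% of all genes. It was seen for 12 of 16 epithelial, 7 of 17 skeletal muscle and 4 of 10 smooth muscle markers. Of fibroblast markers 3 of 7 had such a p, and of Schwann cell markers 1 of 5. Of endothelial markers 2 of 9 had it, in opposite directions, Cldn5 at 0.83 and Plvap at -0.86. Of macrophage markers 1 of 9 had it, of adipocyte markers 1 of 3, and of red blood cell and neutrophil markers none. With array weights 30.2% of all genes passed, and 16 of 16 epithelial, 5 of 17 skeletal muscle and 4 of 10 smooth muscle markers. Of fibroblast markers 3 of 7 passed in that fit, and of Schwann cell markers 4 of 5. Of endothelial, macrophage and adipocyte markers 2 of 9, 1 of 9 and 1 of 3 passed. Without control 5, where 11.5% of all genes passed, the counts in the same order were 7, 3, 1, 3, 2, 2, 0 and 0.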

How the data were processed

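Total RNA of 10 cavernosal samples, 5 diabetic and 5 control, was read on Affymetrix RAE230A arrays. The deposited values are intensities, 1 per probe set and array, as the authors processed them, with software not given in the sources used here. Trimmed means (2% left out at each end) were about 250.06 on every array, so the deposited values were already scaled and were not normalized again. The deposited array records were used for other items only, the fluidics station and the order of scan days.

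Of 15923 rows, 57 controls were left out. Of the 15866 others, 12783 named 1 gene, 312 several and 2771 none, and 12748 symbols were updated through the Entrez identifier. Log2(intensity + 16) was taken, with intensities floored at 1, so fold changes of dim probe sets are understated. The 9683 probe sets at or above the 40th percentile of intensity (85.9) on 5 or more of 10 arrays were tested with limma 3.58.1 in R 4.3.3 (diabetic minus control, eBayes with trend, Benjamini-Hochberg adjustment over all of them, threshold 0.05). The scripts were tested on simulated data. Differences array by array are from the median of the 10 arrays, and for genes with several probe sets the brightest was taken. Genes were named as the 3 with the smallest p in each list, the 8 nearest in profile and the 6 farthest above and below the median on the arrays with the highest and lowest mean of the members. The members and lists were chosen with earlier results of these data known. Numbers 1 to 5 within a group only name the arrays, in the order of deposit, and were not used to pair arrays.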

Additional observations from a re-analysis of the deposited data

Results flagged for a closer look

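In the control group, 1 array lay far from the other 4 for several members. For each group of 5 arrays, the gap between the farthest array and its nearest neighbour was divided by the range of the group. Both were taken on log2 values, formed as for the tests, and not on the linear intensities printed above. Of 26 groups examined, 7 were past the 95% limit of Dixon's test, and in 6 of these the array was control 3, as the lowest. Log2 values set low arrays farther apart than linear intensities do. The flags of single probe sets for control 3 therefore depend largely on this scale. Chance passes about 1 in 20 independent groups. These groups are not independent, because they are probe sets, and the mean of the 8 genes, read on the same arrays. The number of flags can therefore not be set against that share. The ratio was 0.733 for Fos (1375043_at), 0.749 for Junb, 0.725 and 0.871 for Dusp1 (1368146_at and 1368147_at) and 0.728 for Ier2. It was 0.871 for the mean difference of the 8 genes. The remaining one was Jun by 1374404_at in the diabetic group, where diabetic 1 was the highest and the ratio was 0.759. The cause of these gaps was not tested.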

How the results depend on the processing

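No paired analysis was possible because the replicate numbers follow the order of deposit and the sample titles of the groups share a single number, that of control 4 and diabetic 1, which were also scanned on the same day and station. The low mean of the 8 genes on control 3 held under the scalings and pseudocounts tried, at -1.41 to -1.30, and was -1.22 over all 11 probe sets. The count of member probe sets called, 0, became 2, both of Jun, with array weights, and ranged between 0 and 2 with single arrays left out. The count of all probe sets called, 41, became 22 with a pseudocount of 1, 26 without the filter, 0 with scan day or fluidics station as a block, 2813 with array weights and 0 without controls 1 and 2, the last chosen after seeing the data; with single arrays left out it ranged between 0 and 1068, the highest without control 5. Among the 41, 21 were higher in diabetic tissue, against 13 of 43 with median centring.

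Log2 differences changed sign as follows, and the cause was not tested. With quantile normalization Junb stood at 0.036 and Atf3 at 0.013. With a pseudocount of 1, S100a8 stood at 0.17. With scan day as a block Junb stood at 0.073, Atf3 at 0.030, S100a8 at 0.0065 and S100a9 at 0.14. With the station as a block Fos stood at -0.056, Egr1 at -0.13, Cxcl1 at -0.14, S100a8 at 0.28 and S100a9 at 0.27. With array weights Fos stood at -0.19, Egr1 at -0.31, Dusp1 (1368147_at) at -0.0098, Ccl3 at -0.014, Cxcl1 at -0.49, Alas2 at -0.027 and Hbb at -0.078. Without controls 1 and 2 Junb stood at 0.32, Atf3 at 0.20, Slc4a1 at 0.26, S100a8 at 0.90, S100a9 at 1.03 and Cfd at 0.13.

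With single arrays left out, the range was -0.30 to 0.36 for Fos, -0.56 to 0.16 for Junb, -0.31 to 0.24 for Egr1, -0.37 to 0.21 for Atf3, -0.064 to 0.25 and -0.16 to 0.41 for Dusp1, -0.054 to 0.24 for Ier2 and 0.022 to 0.51 for Nr4a1. It was -0.50 to 0.92 for Cxcl1, -1.01 to 0.48 for S100a8, -1.16 to 0.47 for S100a9, -0.51 to 0.016 for Slc4a1, -0.079 to 0.47 for Alas2 and -0.10 to 0.28 for Hbb.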
